A study of Mus musculus with 6 samples.

Results

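The Serpina3 cluster of mouse chromosome 12 was examined in primary hepatocytes with and without interleukin-1β (IL-1β). Its members were taken by symbol from the deposited gene table: Serpina3b, Serpina3c, Serpina3f, Serpina3g, Serpina3h, Serpina3i, Serpina3j, Serpina3k, Serpina3m and Serpina3n, 10 of the 23282 genes listed. The cells came from C57BL6/N mice by collagenase perfusion of the liver and were plated for 3 h. The control group (3 samples) then received no treatment, and the IL-1β group (3 samples) received recombinant IL-1β protein for 24 h. The labels give no time in culture for the controls after plating. Whether the groups were matched in time is therefore not known, and a difference in that time cannot be told apart from IL-1β. No genetic change is named for either group, and the dose, the age of the mice and whether samples came from separate animals or cultures are not stated in the labels, so p-values measure the spread between these samples, which may be technical. The series title speaks of metabolic stress, which the sample labels do not define, and the description counts 2 samples a group while listing 3, all of which were used.

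Serpins are protease inhibitors that present an exposed reactive centre loop as bait. When a protease cuts the loop, the serpin changes shape and traps the enzyme in an inactive complex. In humans the clade member SERPINA3, α1-antichymotrypsin, is a secreted liver protein of the acute phase response, and in the mouse its counterpart has expanded into a row of neighbouring genes whose loops differ. Serpina3n is the member usually compared with human α1-antichymotrypsin, Serpina3k encodes contrapsin, an abundant plasma inhibitor of trypsin-like proteases, Serpina3c encodes a kallikrein-binding protein, and Serpina3g encodes an intracellular inhibitor of cathepsins studied mainly in leukocytes. IL-1β acts on acute phase genes mainly through NF-κB and C/EBP factors, whereas IL-6 acts through STAT3.

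On GRCm38 the 10 genes lay between 104127996 and 104414329 of chromosome 12, a span of 286 kb, and 9 of them were on the plus strand, with Serpina3c on the minus strand. From the left, Serpina3b (104127996 to 104139545) and Serpina3c (104146907 to 104153872) came first. Serpina3f (104214544 to 104221129), Serpina3g (ending at 104241934), Serpina3h (104247896 to 104254405) and Serpina3i (104263122 to 104269365) formed a run of 54.8 kb. Serpina3j (104314570 to 104320586) stood apart, and Serpina3k (104338486 to 104345739), Serpina3m (104387164 to 104394257) and Serpina3n (104406708 to 104414329) formed a run of 75.8 kb. Serpina3h is listed as a noncoding RNA in the table and as a transcribed pseudogene by GENCODE, and the others are protein-coding. The table gives Serpina3g the same start as Serpina3f, whereas GENCODE starts it at 104236245.

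**Figure D1:**
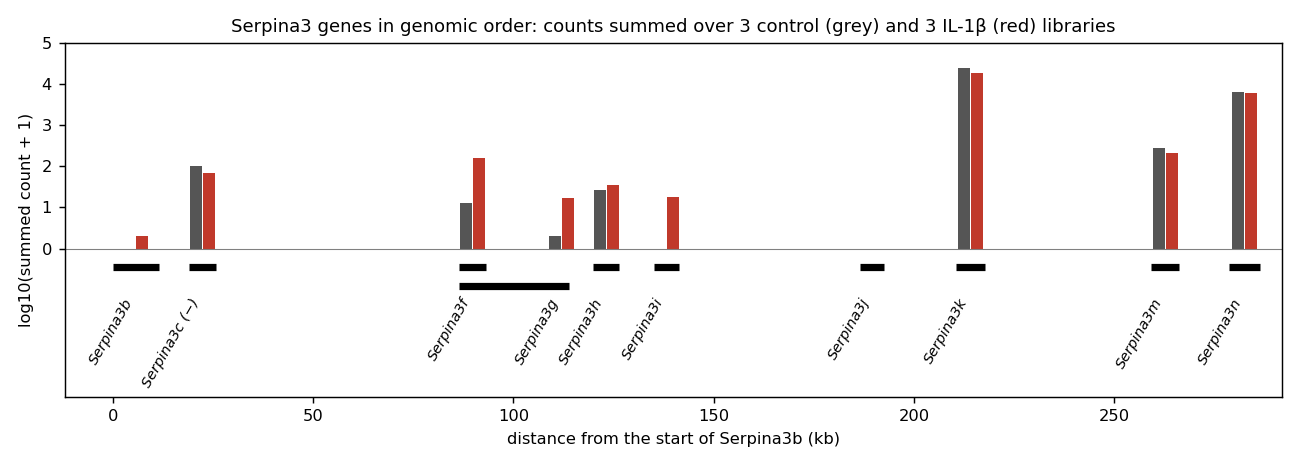
Serpina3 genes drawn to scale as black bars against distance from the start of Serpina3b (kb), with the raw counts of each gene summed over 3 control (grey) and 3 IL-1β (red) libraries above them, as log10 of the count plus 1. Serpina3k and Serpina3n at the right hold nearly all counts, and Serpina3f, Serpina3g and Serpina3i near the middle are the genes whose red bar stands well above the grey one.

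The loop coding stretches of the members that carry the results below show how far the paralogs differ where a protease is met. Each runs from the codons of the hinge (Gly-Thr-Glu) to the conserved Arg-Pro-Phe or Arg-Thr-Phe motif after the loop, in the last exon of the GENCODE transcript, 5′ to 3′ on the coding strand. Capitals mark bases that differ from Serpina3k or have no counterpart there, so that the Serpina3k line has none.
Serpina3k (chr12:104345269-104345352): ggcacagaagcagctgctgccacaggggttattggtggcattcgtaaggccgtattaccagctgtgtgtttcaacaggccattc
Serpina3n (chr12:104413448-104413537): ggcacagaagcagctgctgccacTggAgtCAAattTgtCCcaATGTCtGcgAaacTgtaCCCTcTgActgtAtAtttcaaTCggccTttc
Serpina3f (chr12:104220245-104220337): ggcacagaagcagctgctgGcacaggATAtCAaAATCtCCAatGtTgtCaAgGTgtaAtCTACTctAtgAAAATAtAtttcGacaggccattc
Serpina3i (chr12:104268480-104268569): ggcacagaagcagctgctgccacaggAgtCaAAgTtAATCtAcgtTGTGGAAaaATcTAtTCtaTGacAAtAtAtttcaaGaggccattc
Serpina3g (chr12:104241072-104241161): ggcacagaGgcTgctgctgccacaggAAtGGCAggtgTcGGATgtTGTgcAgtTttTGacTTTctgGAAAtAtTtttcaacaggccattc
The capitals crowd into the middle of each stretch, while the hinge at the left end is nearly the same in all 5. The stretch was searched by a fixed amino acid pattern and found in 7 members. Serpina3b and Serpina3j have coding sequences that did not match the pattern, which does not mean that they lack a loop. Serpina3h has no coding sequence. Among those 7, Serpina3f and Serpina3i were the closest pair of loops, with 88.4% identical bases over 86 aligned. Serpina3g and Serpina3m were the most distant, with 61.1% over 90 aligned. Over coding sequences the closest pairs were Serpina3k with Serpina3m (92.0%, 1148 of 1248 aligned bases) and Serpina3f with Serpina3i (92.0%, 1122 of 1220), and Serpina3k with Serpina3n shared 83.8%. The lowest value was 72.7% for Serpina3g with Serpina3j, over 648 aligned bases only. The Serpina3g coding sequence used here had 744 nt, shorter than all others. Among pairs without Serpina3g the lowest value was 75.0%, for Serpina3b with Serpina3i.

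Such paralogs can share reads. QuantSeq reads the 3′ end of each mRNA, here with reads of 75 nt, and of the 4260 windows of 75 nt in the last 500 nt of the 10 GENCODE transcripts 0 occurred in a transcript of another gene. When the last 1000 nt were taken, 289 of 9260 windows (3.12%) did, led by Serpina3h with 13.7% and Serpina3m with 7.78%. The tool that counted the reads and its treatment of reads with several matches are not given in the sources used here, so each member is reported on its own and as a sum. The GENCODE transcript of Serpina3k ends 405 nt beyond the end that the table gives for the gene, and that of Serpina3c 525 nt beyond it, while the transcript of the pseudogene Serpina3h ends before it. With transcripts cut at the end given in the table, 0 of 4260 windows were shared. For Serpina3h the windows still do not reach that end. Only exact matches were searched, so near matches were not counted.

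The libraries held between 9538741 and 11105408 counts. The 10 members together took between 0.0948% and 0.104% of all counts in the control libraries and between 0.0751% and 0.0809% in the IL-1β libraries. Values below are normalised read counts (CPM, that is, counts in a library of common size after TMM scaling), a scale on which 3 counts amount to 0.269 to 0.321 CPM depending on the library, a limit for counting error only. IL-1β was compared with control by the quasi-likelihood test of edgeR with Benjamini-Hochberg adjustment over the 11657 genes with enough counts.

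IL-1β lowered the most abundant member, Serpina3k, by 22.9%, left Serpina3n without a detectable change, and raised Serpina3f from near the counting limit to a low level. Of the 10 members 5 passed the filter on low counts, and 2 of those were called at an adjusted p below 0.05, Serpina3f higher and Serpina3k lower. Among all genes tested 13.4% were called, 6.97% higher and 6.44% lower. Serpina3f passed the filter only through its IL-1β libraries, so it had to differ to be tested at all. The remaining 3 that passed, Serpina3n, Serpina3m and Serpina3c, were not called, and the 5 that did not pass are given by their counts.

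Serpina3k, the contrapsin gene, stood at 819, 721 and 753 CPM in the control libraries and at 589, 566 and 611 CPM in the IL-1β libraries. All 3 IL-1β libraries lay below all 3 controls, with a gap between the groups. The control mean was 764 ± 50.2 CPM and the IL-1β mean 589 ± 22.5 CPM (SD over n = 3 each). On the log2 scale Serpina3k changed by -0.38 (standard error 0.064, 95% interval -0.51 to -0.24, adjusted p = 0.000117 from edgeR). Its rank among the 11657 genes tested moved from 134 to 204 by mean CPM. Among all genes tested the groups did not overlap in 28.2%, and in 14.2% with IL-1β lower, as in Serpina3k. An unmoderated test of each gene on log2(CPM + 1), of the kind the study's methods name, gave Serpina3k an adjusted p of 0.0669, with the same log2 fold change to within 0.01. That value is adjusted over all genes tested, whereas the study's threshold of 0.05 is given for p with no adjustment named, so the 2 are not alike.

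For Serpina3n, the member compared with human α1-antichymotrypsin, the control libraries gave 198, 208 and 201 CPM and the IL-1β libraries 191, 180 and 202 CPM. The groups overlapped, since the highest IL-1β library stood above 2 of the controls. The means were 203 ± 5.02 and 191 ± 11.2 CPM (SD, n = 3 each), and the log2 fold change was -0.09 (standard error 0.069, adjusted p = 0.519 from edgeR). Its 95% interval, from -0.23 to 0.06, corresponds to between 14.6% lower and 4.04% higher. The difference was within the spread between samples.

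Serpina3m, the gene between Serpina3k and Serpina3n, was measured at 9.58, 10.1 and 6.35 CPM in the controls and 7.06, 6.05 and 7.53 CPM after IL-1β. Serpina3c, on the opposite strand, was measured at 3.57, 3.22 and 2.52 CPM in the controls and 2.89, 1.34 and 2.60 CPM after IL-1β. In both genes the groups overlapped. Their log2 fold changes of -0.34 (95% interval -0.81 to 0.13) and -0.45 (95% interval -1.24 to 0.33) had adjusted p of 0.413 and 0.540 from edgeR. Serpina3m had between 63 and 113 counts a library and Serpina3c between 14 and 38.

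**Figure D2:**
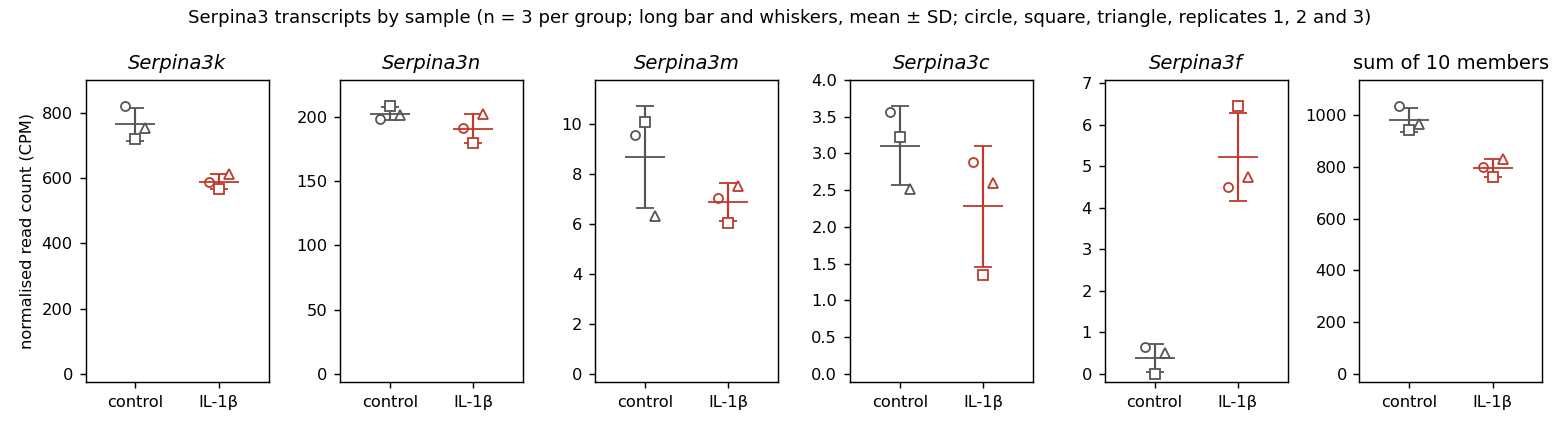
Normalised read count (CPM, linear axes from 0, a different scale in each panel) of the 5 members that passed the filter and of the sum of all 10, for the 3 control (grey) and 3 IL-1β (red) libraries, with symbols for replicates and a long bar with whiskers for the mean ± SD. The red points lie wholly below the grey ones for Serpina3k and the sum, wholly above them for Serpina3f, and among them for Serpina3n, Serpina3m and Serpina3c.

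Summed over the 10 members, expression was 1033, 943 and 964 CPM in the controls and 798, 762 and 830 CPM in the IL-1β libraries. The sum fell in all 3 treated libraries below the lowest control. Its mean went from 980 ± 47.2 to 797 ± 34.4 CPM (SD, n = 3 each), so that its log2 fold change was -0.30 (standard error 0.061, 95% interval -0.42 to -0.17, adjusted p = 0.00104 from edgeR) or 18.7% lower. An exact permutation test of 3 against 3 samples gave a two-sided p of 0.1, the smallest it can give. The fall rested on Serpina3k. Without that gene the sum was 216 ± 5.70 CPM in controls and 208 ± 11.9 CPM after IL-1β (SD, n = 3 each), with a log2 fold change of -0.05 (95% interval -0.20 to 0.09) and an adjusted p of 0.709 from edgeR, whereas without Serpina3n the log2 fold change was -0.36 (adjusted p = 0.000197 from edgeR).

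The make-up of the cluster's RNA can be read within each library, where scaling between libraries plays no part. Serpina3k held 79.3%, 76.4% and 78.1% of the Serpina3 counts in the control libraries and 73.8%, 74.4% and 73.6% in the IL-1β libraries. Serpina3n held 19.2%, 22.1% and 20.9% in the controls and 24.0%, 23.6% and 24.3% after IL-1β. The shares of the groups did not overlap for either gene. The mean share of Serpina3k went from 77.9% to 73.9% and that of Serpina3n from 20.7% to 24.0%, a gain of 3.24 points (exact permutation test, two-sided p = 0.1 for each, the smallest possible). These genes hold nearly all Serpina3 counts, so a fall in the share of Serpina3k must raise that of Serpina3n. Both shares and the ratio below are therefore views of the same result. In CPM Serpina3n did not rise (means of 203 in controls and 191 after IL-1β). Serpina3f went from a mean share of 0.0386% to 0.660%, with no overlap. Since it passed the filter only through its IL-1β libraries, that separation is not independent support for a difference. The shares of Serpina3m (0.886% and 0.862%) and Serpina3c (0.316% and 0.284%) overlapped. For each count of Serpina3n there were 4.13, 3.46 and 3.74 counts of Serpina3k in the controls and 3.08, 3.15 and 3.02 after IL-1β, so the ratio was lower in every treated library (exact permutation test, two-sided p = 0.1).

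**Figure D3:**
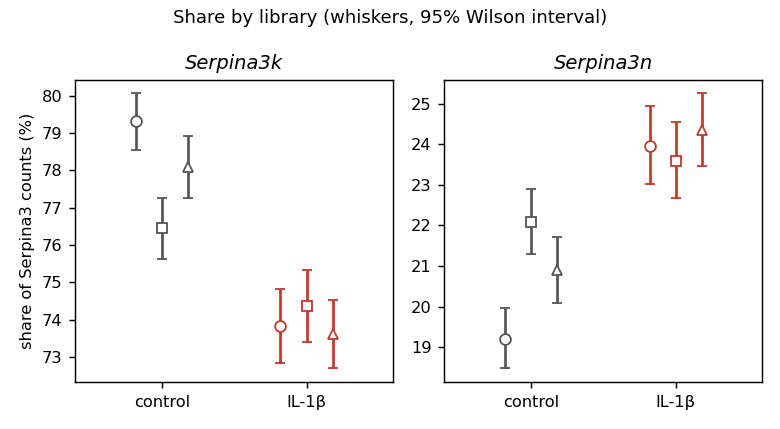
Share of all Serpina3 counts (%) taken by Serpina3k (left) and Serpina3n (right) in each library, with the 95% Wilson interval for counting error as whiskers, controls in grey and IL-1β in red; the axes do not start at 0. The 3 IL-1β libraries lie close together near 74% and 24%, and the controls are more spread, from 76.4% to 79.3% and from 19.2% to 22.1%.

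Levels of different members are compared per kb of transcript, although 3′ reads do not scale with length. In control libraries Serpina3k led with 463 CPM per kb, followed by Serpina3n with 97.2, Serpina3m with 5.23 and Serpina3c with 1.84 CPM per kb, each with a range over samples that did not overlap the next. Below them Serpina3h (0.381 CPM per kb) and Serpina3f (0.232 CPM per kb) overlapped. After IL-1β the order was Serpina3k, Serpina3n, Serpina3m and Serpina3f, at 357, 91.6, 4.15 and 3.13 CPM per kb, and the ranges of the last pair overlapped. Serpina3f thereby stood above Serpina3c (1.35 CPM per kb), with no overlap between them in the treated libraries.

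The genes between Serpina3f and Serpina3i held few counts, and most of these were in treated libraries. Serpina3f had 7, 0 and 5 counts in the control libraries and 42, 67 and 51 in the IL-1β libraries, which is 0.387 ± 0.344 and 5.22 ± 1.06 CPM (SD, n = 3 each). All 3 treated libraries were above all controls, and the log2 fold change was 3.74 (standard error 0.53, 95% interval 2.65 to 4.83, adjusted p = 9.6e-06 from edgeR). Since Serpina3f passed the filter only through its IL-1β libraries, neither that separation nor the p-value is independent support for a difference. The 12 control counts and 160 IL-1β counts, scaled for library size, had a ratio of 13.9, with an exact binomial interval from 7.72 to 27.4 that covers counting error only. The size of the change depended on single control libraries, since without control replicate 2, the library with no count, the log2 fold change was 3.14, and without control replicate 1 it was 4.38, with the call kept in each case. On the log2(CPM + 1) scale, which damps changes at low levels, it was 2.18.

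Serpina3g, the cathepsin inhibitor gene, had 0, 0 and 1 counts in the controls and 5, 4 and 7 after IL-1β. The ratio of its 16 IL-1β counts to the 1 control count was 16.6, with a counting interval from 2.58 to 698. Serpina3i, whose loop and coding sequence are closest to those of Serpina3f, had 0 counts in every control and 8, 4 and 5 counts after IL-1β, at least 5.89-fold higher when 3 counts over the control group are taken as the limit. In both genes every treated library was above every control, but the counts were too few for the filter. Among all genes tested the groups did not overlap in 28.2%. With no filter on low counts, Serpina3i had an adjusted p of 0.0363 and Serpina3g of 0.153 from edgeR. That fit gave some genes far smaller adjusted p, such as 1.1e-22 for Serpina10 against 2.9e-08 with the filter (edgeR in both). The value for Serpina3i rests on 17 counts, all in treated libraries, and is not independent support for a difference. The pseudogene Serpina3h, which lies between them, had 16, 6 and 3 counts in the controls and 15, 9 and 9 after IL-1β. Its groups overlapped, and the ratio of summed counts was 1.37, with a counting interval from 0.792 to 2.41. Serpina3b had 1 count in the libraries as a whole, in IL-1β replicate 1, and Serpina3j had 0 counts in all 6 libraries.

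**Figure D4:**
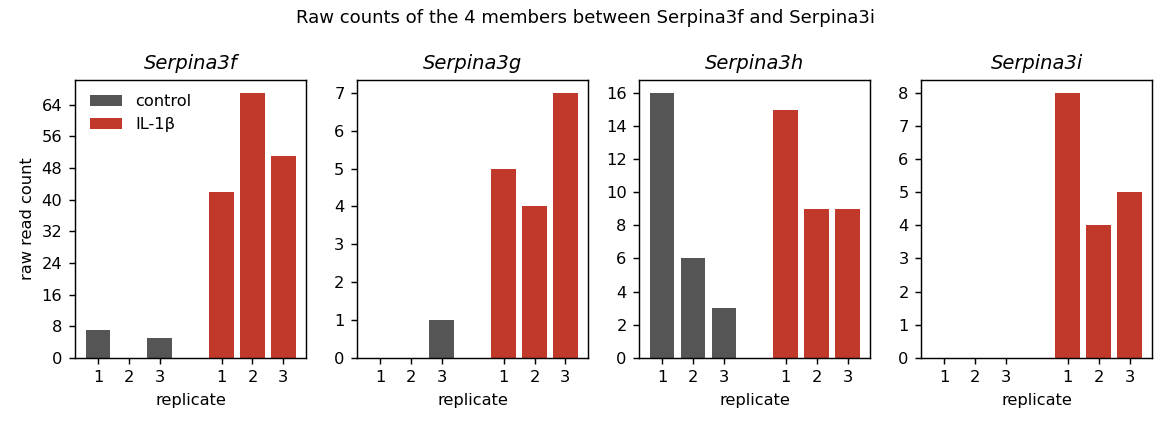
Raw read counts of Serpina3f, Serpina3g, Serpina3h and Serpina3i in the 3 control (grey) and 3 IL-1β (red) libraries, with bars from 0 and a different scale in each panel. Serpina3f reaches 42 to 67 counts after IL-1β against 7 at most in controls, Serpina3g and Serpina3i reach at most 8 counts, and Serpina3h has counts of the same order in both groups.

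Promoters of Serpina3f, Serpina3g and Serpina3i, whose counts lay mostly in treated libraries, are shown beside that of Serpina3n. RefSeq promoter sequences (GRCm38.p6, from 250 bases before to 50 after the start site, plus strand, 5′ to 3′) were at hand for 7 of the 10 members, with none for Serpina3h, Serpina3k and Serpina3m. Both strands were searched for GGG and TTCC with 3 bases of any kind between them (NF-κB), TTCNNNGAA (STAT), TTNNGCAA (C/EBP), GAAA and GAAA with 2 bases between them (an interferon response element) and GTTAAT and ATT with 1 base between them (HNF1), and capitals mark the matches.
Serpina3n (chr12:104406458-104406757): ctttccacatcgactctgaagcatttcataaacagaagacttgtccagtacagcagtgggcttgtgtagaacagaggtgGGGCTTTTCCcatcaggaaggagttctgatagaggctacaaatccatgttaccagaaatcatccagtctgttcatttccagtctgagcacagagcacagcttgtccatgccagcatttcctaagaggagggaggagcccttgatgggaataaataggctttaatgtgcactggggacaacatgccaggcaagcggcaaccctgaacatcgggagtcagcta
Serpina3f (chr12:104214294-104214593): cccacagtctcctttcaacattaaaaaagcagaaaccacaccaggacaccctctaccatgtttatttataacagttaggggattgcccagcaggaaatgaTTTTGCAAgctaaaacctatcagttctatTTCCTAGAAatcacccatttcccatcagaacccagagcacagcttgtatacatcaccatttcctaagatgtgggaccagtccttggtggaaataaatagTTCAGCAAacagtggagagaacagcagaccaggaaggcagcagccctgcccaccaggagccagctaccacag
Serpina3g (chr12:104235897-104236196): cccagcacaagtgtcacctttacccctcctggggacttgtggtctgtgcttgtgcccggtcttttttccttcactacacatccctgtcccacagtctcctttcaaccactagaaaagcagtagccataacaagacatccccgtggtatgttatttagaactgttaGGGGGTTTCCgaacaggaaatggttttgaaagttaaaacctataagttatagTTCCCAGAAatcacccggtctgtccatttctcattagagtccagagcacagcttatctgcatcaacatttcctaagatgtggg
Serpina3i (chr12:104262872-104263171): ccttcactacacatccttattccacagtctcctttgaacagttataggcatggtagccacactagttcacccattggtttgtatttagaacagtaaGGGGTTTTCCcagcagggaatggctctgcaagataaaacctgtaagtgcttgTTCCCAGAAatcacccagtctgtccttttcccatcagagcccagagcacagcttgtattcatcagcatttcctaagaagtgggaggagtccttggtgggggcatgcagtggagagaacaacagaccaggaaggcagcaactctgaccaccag
Counted from the start site as 0, the NF-κB letters were at -171 in Serpina3n, -85 in Serpina3g and -154 in Serpina3i. The STAT letters were at -121 in Serpina3f, -33 in Serpina3g and -102 in Serpina3i. In each of these promoters they were followed by the same bases, atcaccc. Matches in the related promoters of paralogs are not separate hits, so they cannot be set as independent against the shares over all promoters given below. The Serpina3g window ends before the GENCODE start of that gene at 104236245, from which its NF-κB and STAT letters would lie further upstream. Serpina3f has another entry with a start site further downstream (chr12:104214383-104214682, not printed), from which the STAT letters were at -210 and the C/EBP letters at -239 and -111. From the start site shown, the C/EBP letters were at -150 and -22 in Serpina3f and at -152 in Serpina3b, and no matches overlapped. Serpina3c and Serpina3j held none of the 5 motifs in this window. Of 32851 promoters of the same length, 5.56% held the NF-κB letters, 8.30% the STAT letters, 10.8% the C/EBP letters, 3.44% those of the interferon response element and 0.399% those of HNF1.

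**Figure D5:**
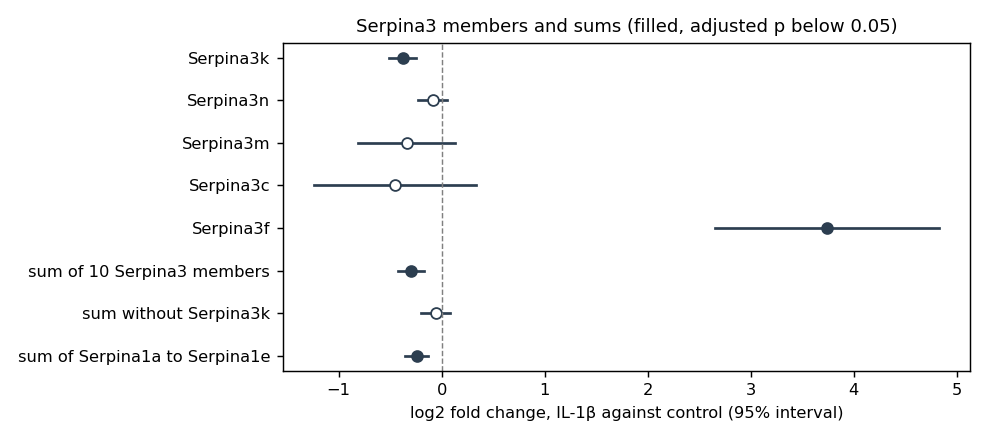
Log2 fold change (IL-1β against control, 3 samples each) with its 95% interval for the 5 members that passed the filter, for the Serpina3 sum with and without Serpina3k, and for the sum of Serpina1a to Serpina1e; filled points have an adjusted p below 0.05 from edgeR. Serpina3f lies far to the right with a wide interval from 2.65 to 4.83, Serpina3k and the sum lie to the left of 0, and the interval of Serpina3n spans 0.

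The nearest relatives of the cluster are the other clade A serpins, most of which are secreted by the liver. Of 15 listed genes 10 were tested, and 2 were higher and 4 lower after IL-1β (60% called, against 13.4% of all genes tested). Their median log2 fold change was -0.20, against -0.0018 over all genes tested. Serpina10, which encodes the inhibitor of coagulation factor X known as protein Z-dependent protease inhibitor, went from 159 ± 15.4 to 89.2 ± 5.77 CPM (log2 fold change -0.83, adjusted p = 2.9e-08 from edgeR). Serpina7, which encodes thyroxine-binding globulin, went the other way, from 350 ± 26.6 to 521 ± 16.3 CPM (log2 fold change 0.57, adjusted p = 4.8e-07 from edgeR). The α1-antitrypsin genes Serpina1b and Serpina1c fell by 0.45 and 0.30 on the log2 scale (adjusted p = 2.4e-06 and 0.00148 from edgeR). Serpina1e, the most abundant of the list, had a log2 fold change of -0.12 and was not called (adjusted p = 0.245 from edgeR). Serpina9 had 17 counts in controls and 0 after IL-1β and was not tested.

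The study centres on α1-antitrypsin, which in the mouse is encoded by Serpina1a to Serpina1e. For each count of these 5 paralogs there were 0.149, 0.139 and 0.138 counts of the Serpina3 members in the controls and 0.143, 0.130 and 0.136 after IL-1β. The groups overlapped, and the log2 ratio differed by -0.06 (exact permutation test, two-sided p = 0.4). The ratio of Serpina3n alone to the Serpina1 sum was 0.0286, 0.0306 and 0.0288 in the controls and 0.0342, 0.0308 and 0.0331 after IL-1β, higher by 0.15 on the log2 scale and without overlap between groups (p = 0.1 in a two-sided exact permutation test). The Serpina1 sum had itself a log2 fold change of -0.24 (adjusted p = 0.00260 from edgeR).

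Serpins of other clades also moved in both directions, with 2 of 12 tested higher and 4 lower (50% called, against 13.4% of all genes tested). Serpinf2, which encodes α2-antiplasmin, fell from 83.6 ± 7.39 to 14.6 ± 3.20 CPM (log2 fold change -2.52, adjusted p = 7.4e-14 from edgeR). Serpinb6b, an intracellular serpin gene, fell by 1.11, and Serpinc1, the antithrombin gene, was at -0.20 on the same scale (adjusted p = 0.00450 and 0.0577 from edgeR). Serpinc1 passed the threshold without control replicate 3 (log2 fold change -0.26, adjusted p = 0.0251), and also in the fit with a replicate block (-0.20, adjusted p = 0.0432 from edgeR). Serping1, the C1 inhibitor gene and the most abundant of this list, went from 1254 ± 63.9 to 1485 ± 68.4 CPM (log2 fold change 0.24, adjusted p = 0.00632 from edgeR). All SDs here are over n = 3 samples a group.

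Of 19 genes for proteases that clade A3 serpins could meet, 6 were tested, and 2 were higher and 1 lower. That is 50% called, against 13.4% of all genes tested. Ctsc, which encodes the dipeptidyl peptidase that activates granule serine proteases, rose from 45.8 ± 1.17 to 169 ± 12.0 CPM (SD, n = 3 each; log2 fold change 1.89, adjusted p = 5.5e-15 from edgeR). Ctsb, the cathepsin B gene, rose from 589 ± 20.3 to 888 ± 43.5 CPM (SD, n = 3 each; log2 fold change 0.59, adjusted p = 7.4e-08 from edgeR), and Ctsh, the cathepsin H gene, fell by 0.28 on the log2 scale (adjusted p = 0.0276 from edgeR). That call was lost without control replicate 2 or 3 or IL-1β replicate 1 or 3, with adjusted p of 0.0531, 0.124, 0.199 and 0.0614. Ctsl, the cathepsin L gene and the most abundant of the list, had a log2 fold change of -0.15 and was not called (adjusted p = 0.0981 from edgeR). The classical targets of antichymotrypsin, cathepsin G (Ctsg) and mast cell chymase (Cma1), and neutrophil elastase (Elane) had 0 counts in all libraries. Prtn3, the proteinase 3 gene, had 5 counts in controls and 20 after IL-1β and was not tested.

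The same cells allow a look at the pathways that act on acute phase genes. Of 22 such signalling genes tested, 10 were higher and 2 lower (54.5% called, against 13.4% of all genes tested), with a median log2 fold change of 0.36. They included Nfkbia, the NF-κB inhibitor and target (log2 fold change 1.54), the IL-1 receptor gene Il1r1 (2.06), Cebpd (2.27) and Socs3, a target of STAT3 (1.54), with adjusted p of 3.2e-15, 6.3e-15, 2.3e-13 and 1.3e-10 from edgeR, while Hnf4a, a factor of hepatocyte identity, fell by 1.04 and the abundant kinase gene Jak1 was not called (log2 fold change 0.07). Among acute phase proteins 17 of 21 tested were higher and 0 lower (81% called, against 13.4% of all genes tested), with a median log2 fold change of 1.02. The smallest adjusted p belonged to Saa3 (log2 fold change 4.02), Lcn2 (2.01), Apcs (1.70) and Saa1 (1.29). The most abundant in controls, Hpx, which encodes the haem carrier haemopexin, had 0.38 (adjusted p = 0.00267 from edgeR, and 0.144 from DESeq2).

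The genes whose pattern over the 6 samples was most like that of Serpina3n, by Pearson's r of log2(CPM + 1) among 7978 genes with a mean of at least 10 CPM, were Zfp329 (r = 0.992), Sec22a (0.986), Shb (0.986), Lyrm9 (0.981) and Zfp513 (0.976), and none of these was called. For the Serpina3 sum they were Tufm (0.997), Itga7 (0.996), Glyat (0.996), Trf (0.996) and Gstm3 (0.993), of which Itga7, Glyat, Trf and Gstm3 were called lower. Trf, the transferrin gene, went from 3189 to 2730 CPM (log2 fold change -0.22), a call lost without IL-1β replicate 2 (-0.19, adjusted p = 0.0910 from edgeR). These points share libraries and scaling, and the coefficients are descriptions.

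Among markers of the labelled cell type, Alb, the albumin gene, had a mean of 16200 CPM in controls and carried most of the summed level, while Fabp1 had 34.0, Cps1 2.65 and Ass1 0.717 CPM. Of 9 hepatocyte markers 8 were tested, and 6 of 8 were called lower (75%, against 6.44% of all genes tested). The summed level of the 9 was between 23587 and 24059 CPM in controls and between 19774 and 20521 CPM after IL-1β, so it moved with Serpina3k. In such bulk samples fewer hepatocytes and less RNA per hepatocyte cannot be told apart. Macrophage and Kupffer cell markers (13 genes, 10 tested, 0 called) summed to between 220 and 249 CPM in controls and 226 and 255 CPM after IL-1β, with none at 0. Cd68 alone gave 192 CPM of that in controls and 184 CPM after IL-1β on average, while the Kupffer cell marker Clec4f was at 1.17 and 0.493 CPM. Neutrophil markers, given because Serpina3f, Serpina3g and Serpina3i were near 0 in controls, summed to at most 0.179 CPM in controls and to between 2.35 and 5.02 CPM after IL-1β. That rise was carried by S100a8 (0 and 106 counts), while S100a9, Mpo and Ngp were at 0 in all libraries. T and NK cell markers summed to at most 0.214 CPM in any library, with Cd3e, Cd3g and Cd8a at 0, and B cell markers to at most 0.101 CPM. Endothelial markers summed to between 77.8 and 86.6 CPM over all libraries, although 3 of 8 tested were called (37.5%, against 13.4% of all genes tested). Clec4g (log2 fold change -2.87, adjusted p = 1.9e-05 from edgeR) and Kdr (-1.49, adjusted p = 0.00511 from edgeR) were lower and Lyve1 (0.45, adjusted p = 0.0274 from edgeR) was higher. Stellate and fibroblast markers (9 genes, 2 tested, 0 called) summed to between 20.7 and 27.9 CPM. Most of that came from Dcn (18.4 CPM in controls and 20.3 CPM after IL-1β on average), with Lrat and Des near 0. Cholangiocyte markers summed to between 316 and 329 CPM in controls and between 236 and 240 CPM after IL-1β, nearly all of it from Spp1 (190 and 82.7 CPM on average, called lower) and Sox9 (134 and 155 CPM, not called), with Krt7, Krt19, Epcam and Cftr at or near 0. The part of any of these in the Serpina3 values was not tested.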

How the data were processed

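RNA of 3 control and 3 IL-1β samples was sequenced with the QuantSeq 3′ kit (Lexogen) as single-end reads of 75 nt. Per the labels, the authors aligned reads with Bowtie2 (version not given in the sources used here) to mm10/GRCm38 and normalized with edgeR. The authors deposited raw counts per gene, which were used here, beside log2 values of TMM-normalized CPM and their group means, a linear ratio (fold change) and a p-value, which were not used. The ratio and p-value hold the authors' own comparison of the groups.

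The edgeR package 4.0.16 in R 4.3.3 was run on the counts (filterByExpr, TMM, quasi-likelihood test, Benjamini-Hochberg adjustment over 11657 genes, threshold 0.05), and summed members were added as further rows of that fit. The standard error is the log2 fold change divided by the square root of F. In data simulated for control against IL-1β (11657 genes), 38%, 76%, 96% and 100% of genes changed 1.5, 2, 4 and 8 fold were recovered, and 3.7% of calls were false. The simulation gave all genes the same dispersion and changed 50 genes at each fold. Its rates therefore check the procedure and need not hold for these data, least of all for genes with few counts. Exact permutation tests used Python 3.11.15 with scipy 1.17.1, and alignments used Biopython 1.88. Library totals of 9538741 to 11105408 counts limit the precision of the low members.

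The members, gene lists and motifs were chosen with earlier results of these data known. Named genes are all members, and for other lists the few with the smallest adjusted p and the most abundant. Serpina9, Hnf4a, Prtn3 and the genes at 0 were named after their values were seen, and 1 gene selected from the other serpins is not reported here. Alternatives were DESeq2 1.42.0, scaling by upper quartiles or by total counts, omission of Rn45s, other filters, limma 3.58.1 on log2(CPM + 1) and log2(CPM + 0.1), Student's test, a fold threshold of 1.5, a block for the replicate number, removal of each sample in turn, and other window lengths. The transcript end given in the table was added as an alternative after the data were seen. Windows of 75 nt came from GENCODE M21 transcripts, and loop stretches were found by translating coding sequences.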

Additional observations from a re-analysis of the deposited data

How the results depend on the processing

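The direction of each member that passed the filter and of the Serpina3 sum was the same under every alternative that tested it. The calls of Serpina3k and of the sum ended with Student's test of log2(CPM + 1) values, in which the sum kept its log2 fold change of -0.30 with an adjusted p of 0.0754, and the cause was not tested. Serpina1c, Serpinb6b, Serping1, Ctsh, Hpx and Trf lost their calls with that test too, while Serpinc1 and Ctsl gained a call under upper-quartile and total-count scaling, and Serpinc1 under the replicate block. Student's test called 547 genes in all, 1 Serpina3 member (Serpina3f) and 3 clade A neighbours, against 1563, 2 and 6 with edgeR, and a fold threshold of 1.5 left 769, 1 (Serpina3f) and 1. With at least 10 counts in every sample 1 member was called (Serpina3k), since Serpina3f was not tested. With no filter 3 were, Serpina3i being added on few counts, all in treated libraries. Total-count scaling changed the split of called genes from 812 higher and 751 lower to 662 higher and 1008 lower. Without Serpina3k the sum's log2 fold change was -0.0549 (adjusted p = 0.709 from edgeR), and Serpina3n alone against the Serpina1 sum gave a log2 ratio difference of 0.15 in place of -0.06. Shared windows were 0% in the last 500 or 300 nt and with transcripts cut at the end given in the table. They were 3.12% in the last 1000 nt and 0.710% with windows of 50 nt. Leaving out 1 sample at a time, the genes called ranged from 1131 to 1596, the clade A neighbours called from 5 to 6, the sum from -0.33 to -0.26, the gain in the Serpina3n share from 2.48 to 3.92 points and the log2 ratio of Serpina3 to Serpina1 from -0.09 to -0.02, while 2 members were called each time. The labels do not say whether same-numbered samples were paired. Their correlations over all genes tested, taken as deviations from the group means, were 0.075, 0.027 and -0.005. Such values are dominated by noise between samples and cannot decide whether samples were paired. In a fit with a replicate block 1671 genes and 2 members were called and the sum was at -0.30 (adjusted p = 0.000152 from edgeR). Depth limits Serpina3b, Serpina3g, Serpina3h, Serpina3i and Serpina3j, for which a change of expression could not be tested with the filter.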
